A study of Mus musculus with 6 samples.

Results

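FXR ChIP-seq peaks were collected here for the phase II conjugation genes, that is for every peak whose nearest gene is a Ugt, Sult or Gst gene. Matching the start of the gene name to Ugt1, Ugt2, Ugt3, Ugt8, Sult1 to Sult6, Gsta, Gstm, Gstp, Gstt, Gstk, Gsto or Gstz gave 72 of 20040 WT peaks and 54 of 12495 Bcl6LKO peaks. The Ugt family held 21 WT and 11 Bcl6LKO peaks, the Sult family 18 and 22, and the Gst family 33 and 21. The matching used gene names alone and no measured value, but the families were chosen with earlier results of these data known.

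FXR is the nuclear receptor for bile acids, and it binds DNA mostly as a heterodimer with RXR at inverted repeats of the half-site AGGTCA. Phase II enzymes make lipophilic compounds soluble by attaching a polar group. UDP-glucuronosyltransferases (Ugt) attach glucuronic acid, sulfotransferases (Sult) attach sulfate and glutathione S-transferases (Gst) attach glutathione. In liver these enzymes act on bilirubin, bile acids, steroids, drugs and products of lipid peroxidation.

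The livers came from male C57BL/6 mice whose age is not stated, and all of them carried floxed Bcl6 alleles. The WT group was Bcl6 fl/fl and the Bcl6LKO group was Alb-cre, Bcl6 fl/fl, in which an albumin-driven Cre removes Bcl6 from hepatocytes. BCL6 is a transcriptional repressor. Each genotype had 2 ChIP libraries made with an FXR antibody and 1 input library, with no agent given. The peak tables hold no measure of Bcl6 itself, so the deletion could not be checked, and whole liver chromatin does not separate hepatocytes from other liver cells.

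The WT libraries held 19022618 and 2883717 tags and the Bcl6LKO libraries 21287263 and 22637613 tags, so that WT replicate 2 was shallow beside the others. The inputs held 6964271 and 6935001 tags. The 2 tables were normalised separately and each genotype has 2 ChIP libraries, with which an exact permutation test cannot go below p = 0.333. All comparisons between genotypes are therefore given as values and their spread, with no test. A shared peak is one that overlaps a peak of the other list by at least 1 bp. For every library the median log2 tag value of its shared peaks was subtracted, and the result is called a level here. Nothing in the labels says whether the replicates came from separate mice, so an SD here may be technical.

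The strongest shared peaks of the Sult and Ugt families are shown first, because the levels given below are highest there within each family (mm10, plus strand). Capitals mark exact copies of the half-site on either strand. The Sult2a7 window, chr7:14525337-14525547, lies between genes, 32516 bp upstream of the transcription start site (TSS). The Ugt1a1 window, chr1:88213735-88213945, lies in intron 1 of the gene, 1881 bp past the TSS.
Sult2a7: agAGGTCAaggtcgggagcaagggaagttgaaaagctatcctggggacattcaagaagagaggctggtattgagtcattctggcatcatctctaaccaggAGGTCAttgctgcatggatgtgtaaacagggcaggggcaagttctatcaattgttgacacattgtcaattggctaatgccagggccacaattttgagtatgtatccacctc
Ugt1a1: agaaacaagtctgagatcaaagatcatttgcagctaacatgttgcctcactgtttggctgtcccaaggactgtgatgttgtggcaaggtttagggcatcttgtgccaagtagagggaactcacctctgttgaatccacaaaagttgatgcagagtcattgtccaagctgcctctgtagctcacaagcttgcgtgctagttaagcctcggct
The Sult2a7 window holds 2 half-sites, and the Ugt1a1 window holds 0. No IR1, the inverted repeat of the half-site around a 1-base spacer, was found in these windows with up to 2 mismatches in its 12 scored bases.

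FXR peaks were assigned to 44 of the 65 protein-coding Ugt, Sult and Gst genes in RefSeq, and to none of 3 pseudogenes. A WT peak was assigned to 43 of the 65 (66.2%) and a Bcl6LKO peak to 33 (50.8%). Among all protein-coding genes the shares were 34.5% and 26.3%. Peaks in both lists were found for 8 of 22 Ugt genes, 11 of 21 Sult genes and 13 of 22 Gst genes. Peaks were in the WT list alone for 6 Ugt genes, 1 Sult gene (Sult1a1) and 4 Gst genes (Gsta1, Gstm6, Gstm7 and Gstp1). Gsto1 was the 1 gene with a peak in the Bcl6LKO list alone.

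**Figure D1:**
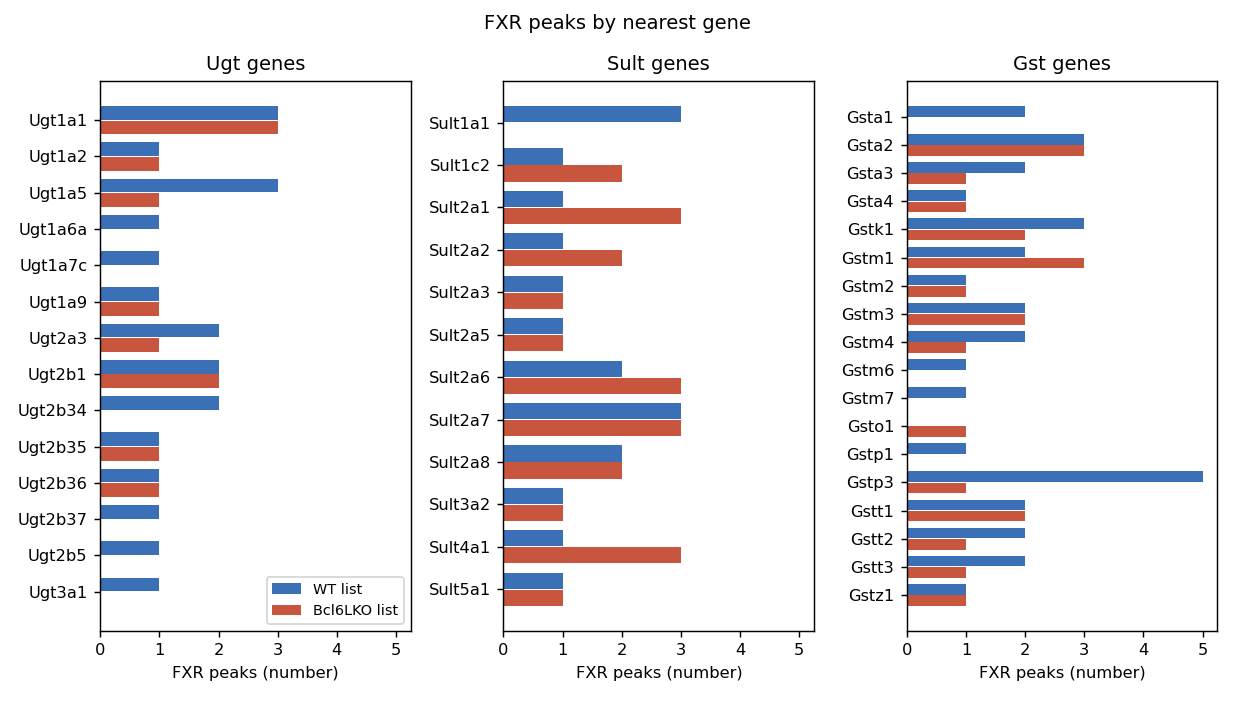
Number of FXR peaks by nearest gene, for the Ugt, Sult and Gst genes with a peak in either list; blue bars are the WT list and red bars the Bcl6LKO list. Gstp3 had 5 WT peaks and 1 Bcl6LKO peak, Sult1a1 had 3 and 0, and Sult4a1 had 1 and 3.

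No peak was nearest to 21 of the protein-coding genes. They were Ugt1a6b, Ugt1a8, Ugt1a10, Ugt2a1, Ugt2a2, Ugt2b38, Ugt3a2 and Ugt8a, Sult1b1, Sult1c1, Sult1d1, Sult1e1, Sult2a4, Sult2b1, Sult3a1, Sult6b1 and Sult6b2, and Gstm5, Gsto2, Gstp2 and Gstt4. The Ugt1a genes share their last exons and differ in the first, so a peak in this locus lies inside several transcripts and its gene name is the nearest first exon only. Many of these genes sit in tandem clusters of close copies, and only uniquely aligned reads were kept, so peaks in near-identical stretches can be missed or weakened. Peaks within 10000 bp of a TSS made up 73.6% of WT and 72.2% of Bcl6LKO peaks of the 3 families, against 42.9% and 42.4% of all peaks.

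About as many peaks were common to both lists as among all peaks. Of the WT peaks, 38 of 72 (52.8%, 95% Wilson interval 41.4 to 63.9) were overlapped by a Bcl6LKO peak, against 49.5% of all WT peaks. Of the Bcl6LKO peaks the same 38 were 70.4% of 54 (57.2 to 80.9), against 79.4% of all Bcl6LKO peaks. Both intervals hold the share of the whole list. The intervals cover counting error only. The centres of the 38 pairs lay a median of 14 bp apart.

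In the Ugt family 9 of 21 WT peaks (42.9%, 24.5 to 63.5) and 9 of 11 Bcl6LKO peaks (81.8%, 52.3 to 94.9) were shared. In the Gst family the counts were 17 of 33 (51.5%, 35.2 to 67.5) and 17 of 21 (81.0%, 60.0 to 92.3). The Sult family had more peaks in the Bcl6LKO list, and 12 of 18 WT peaks (66.7%, 43.7 to 83.7) and 12 of 22 Bcl6LKO peaks (54.5%, 34.7 to 73.1) were shared. The Sult share of Bcl6LKO peaks lay below the list's 79.4%, with an interval that does not reach it. Of the 10 Bcl6LKO Sult peaks that were not shared, 4 lie in related repeats of the Sult2a cluster, described below. The interval counts them as separate peaks and may be too narrow.

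Peaks of 1 list were weaker than shared ones, as they were over all peaks. The 34 WT peaks without a Bcl6LKO partner had a median level of -1.38 and the 38 shared ones -0.11. The 16 Bcl6LKO peaks without a WT partner had a median level of -0.69 and the 38 shared ones 0.02. Over all peaks in 1 list the medians were -1.21 in WT and -0.74 in Bcl6LKO. At least 10 estimated tags stood behind both replicates of 35 of 72 WT peaks (44.2% of all WT peaks) and of 54 of 54 Bcl6LKO peaks (99.6% of all). Among the 34 peaks in the WT list alone it was 7 (20.6%), with a median of 5.51 estimated tags in WT replicate 2, against 21.3% and 6.37 tags for all peaks in the WT list alone. A peak missing from a list was not called there, and the tables give no signal at that place.

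Glucuronidation genes had their strongest shared FXR peak at Ugt1a1, the enzyme that conjugates bilirubin. Its intron 1 peak at 1881 bp past the TSS had levels of 1.69 and 1.83 in the WT libraries and 1.60 and 1.22 in the Bcl6LKO libraries. Both Bcl6LKO values were below both WT values, with a mean difference of -0.35 and a pooled SD of 0.20. This peak ranked 831 of 20040 WT peaks and 1218 of 12495 Bcl6LKO peaks.

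A neighbouring Ugt1a1 peak, chr1:88213179-88213389, lay 1325 bp past the TSS with levels of 0.96 and 1.14 in WT and 0.79 and 0.61 in Bcl6LKO. The third Ugt1a1 peak, chr1:88209366-88209576, lay 2488 bp upstream, inside intron 1 of an upstream Ugt1a transcript. It had levels of 0.25 and 0.30 in WT and 0.58 and 0.52 in Bcl6LKO, the one shared Ugt peak with both Bcl6LKO libraries above both WT libraries, by 0.27. The input was high at these peaks. Its log2 values were 3.40, 2.31 and 2.29 in WT, from the intron 1 peak to the upstream one, where the 95th percentile of all WT peaks was 1.85. In Bcl6LKO they were 3.0 and 2.98 at the peaks past the TSS, against 2.49, and 0.05 at the upstream peak. The ChIP log2 values at the intron 1 peak were 6.70 and 7.37 in WT.

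Ugt1a9, which conjugates phenols, had a peak in its intron 1 at chr1:88074546-88074756. Its levels were 1.10 and 0.97 in WT and 0.63 and 0.98 in Bcl6LKO, and the libraries of the genotypes overlapped. Ugt1a5 had 3 WT peaks, at 3524 bp upstream and 6359 and 13820 bp past the TSS. Their levels in the 2 WT libraries were -1.92 and -2.08, -0.94 and -0.94, and -1.11 and -0.23. None of these was shared, and the Bcl6LKO list had another Ugt1a5 peak in exon 1, 203 bp past the TSS, with levels of -0.57 and -0.99. It was the strongest Ugt peak of the Bcl6LKO list alone.

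The Ugt2 genes, whose enzymes act on steroids and bile acids, had weaker peaks. All 4 shared ones lay under the shared-peak median by their mean over the 4 ChIP libraries. The furthest down of the shared Ugt peaks whose libraries did not overlap was at Ugt1a2, 15602 bp upstream, with levels of -0.43 and -0.04 in WT and -0.53 and -1.14 in Bcl6LKO. Its mean difference was -0.59 and the pooled SD 0.36. The strongest Ugt peak of the WT list alone was 11954 bp upstream of Ugt2b1, with levels of -0.35 and -0.01.

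Most sulfotransferase peaks were assigned to the Sult2a cluster on chromosome 7, whose enzymes sulfate hydroxysteroids and bile acids. Of the 21 protein-coding Sult genes 8 lie in this cluster. The cluster held 11 of the 18 WT Sult peaks and 15 of the 22 Bcl6LKO Sult peaks, and 9 were shared. The strongest, 32516 bp upstream of Sult2a7, had levels of 1.62 and 2.02 in WT and 1.24 and 1.61 in Bcl6LKO. The difference between Bcl6LKO and WT was -0.39, with a pooled SD of 0.27.

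The Sult2a7 promoter peak, chr7:14493001-14493211, was 180 bp upstream of the TSS. It had levels of 0.41 and 0.43 in WT and -0.84 and -0.67 in Bcl6LKO. This was the shared Sult peak furthest down in Bcl6LKO, with a difference of -1.18 and a pooled SD of 0.08. A further Sult2a7 peak, 29986 bp upstream, had levels of -0.42 and 0.31 in WT and -0.80 and -1.40 in Bcl6LKO. All 3 Sult2a7 peaks thus had both Bcl6LKO libraries below both WT libraries, as did 25.2% of all shared peaks.

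Other members of the cluster had higher levels in Bcl6LKO. At the Sult2a3 promoter, chr7:14123147-14123357, the levels were -1.56 and -0.86 in WT and 0.02 and 0.35 in Bcl6LKO. The difference of 1.39, with a pooled SD of 0.39, was the furthest up of the shared peaks of the 3 families. At a peak 51252 bp from Sult2a6 the levels were -0.73 and -0.38 in WT and 0.04 and 0.33 in Bcl6LKO. Across the 9 shared Sult2a peaks, 4 had both Bcl6LKO libraries below, 2 had both above and 3 overlapped. Among all shared peaks 25.2% were below and 29.8% above.

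The promoter peaks of Sult2a5 and Sult2a3 are shown because they lie over close copies of one promoter and only one was shared (mm10, 5′ to 3′ on the strand of the gene). Capitals mark an IR0, the inverted repeat of the half-site with no spacer, which has been described as a nuclear receptor element in rodent Sult2a promoters. The Sult2a5 window is chr7:13623696-13623906 on the plus strand and the Sult2a3 window chr7:14123147-14123357 on the minus strand.
Sult2a5: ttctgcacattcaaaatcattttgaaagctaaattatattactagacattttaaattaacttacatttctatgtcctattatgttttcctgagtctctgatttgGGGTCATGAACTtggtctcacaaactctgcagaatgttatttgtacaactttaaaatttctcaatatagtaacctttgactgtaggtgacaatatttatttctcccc
Sult2a3: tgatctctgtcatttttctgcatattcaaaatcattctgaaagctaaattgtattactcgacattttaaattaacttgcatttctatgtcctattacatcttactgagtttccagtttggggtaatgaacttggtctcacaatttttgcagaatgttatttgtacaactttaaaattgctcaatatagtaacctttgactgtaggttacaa
The windows aligned over 196 columns with 90.3% identity. The Sult2a5 window holds an IR0 with 2 mismatches, 5 bp from its centre, and no match with up to 2 mismatches was found in the Sult2a3 window. The Sult2a5 peak was in the WT list alone, with levels of -1.54 and -2.04. The Sult2a6 promoter also holds an IR0 with 2 mismatches and had no promoter peak in either list.

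Bcl6LKO peaks without a WT partner were found at Sult2a5, Sult2a2, Sult2a1 and Sult2a6 in a LINE repeat of the type L1VL2. These 4 were the only peaks of the Bcl6LKO list annotated to that repeat, and the WT list had 5 such peaks, none of them at a Ugt, Sult or Gst gene. The 3 most alike are shown because reads from such copies are hard to place uniquely (mm10, Sult2a1 on the minus strand). Capitals mark the best IR1. The windows are chr7:13638134-13638338 in an intron, 14269 bp from the Sult2a5 TSS, chr7:13751926-13752130 in an intron, 18522 bp from that of Sult2a2, and chr7:13817124-13817328 in an intron, 20184 bp from that of Sult2a1.
Sult2a5: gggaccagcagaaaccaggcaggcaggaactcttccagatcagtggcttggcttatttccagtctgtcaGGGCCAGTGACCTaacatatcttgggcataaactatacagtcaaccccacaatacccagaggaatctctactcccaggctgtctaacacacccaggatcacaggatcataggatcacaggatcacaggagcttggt
Sult2a2: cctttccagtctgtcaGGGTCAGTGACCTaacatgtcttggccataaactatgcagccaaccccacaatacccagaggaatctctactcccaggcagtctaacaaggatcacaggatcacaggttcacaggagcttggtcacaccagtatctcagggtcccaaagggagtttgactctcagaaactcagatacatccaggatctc
Sult2a1: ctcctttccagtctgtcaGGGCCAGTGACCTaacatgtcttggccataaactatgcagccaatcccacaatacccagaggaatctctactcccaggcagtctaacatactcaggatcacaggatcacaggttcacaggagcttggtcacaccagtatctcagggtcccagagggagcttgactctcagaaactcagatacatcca
The Sult2a2 site has 1 mismatch to the IR1 and those of Sult2a5 and Sult2a1 have 2. From the peak centre the sites lie 80 bp at Sult2a2, 78 bp at Sult2a1 and 27 bp at Sult2a5. The Sult2a2 and Sult2a1 windows aligned over 203 columns with 95.6% identity, and both aligned with the Sult2a5 window over 150 columns, with 86.7% and 88.7% identity. Levels in the Bcl6LKO libraries were -0.85 and -1.23 at Sult2a5, 0.26 and -0.21 at Sult2a2, and -0.73 and -1.06 at Sult2a1. The fourth peak, 52149 bp from Sult2a6, had levels of -1.52 and -0.81, and its window held 0 IR1 matches with up to 2 mismatches. Whether read placement had a part in these 4 peaks was not tested.

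Sult2a1 had 3 Bcl6LKO peaks in all. A second intronic one, 22736 bp past the TSS, had levels of -0.32 and -0.64 and was not in the WT list. The third, 8458 bp upstream, was shared, with levels of -1.03 and -0.80 in Bcl6LKO and -1.11 and -1.0 in WT, so the genotypes overlapped. Sult2a6 had a further Bcl6LKO peak 39715 bp from its TSS, with levels of -0.92 and -1.23, and a WT peak 54058 bp upstream, with levels of -1.26 and -1.21.

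Outside the Sult2a cluster, Sult4a1, a sulfotransferase best known from brain, had an intron 1 peak at chr15:84103158-84103368 that was higher in Bcl6LKO. Its levels were -0.26 and -0.24 in WT and 0.91 and 1.07 in Bcl6LKO, a difference of 1.24 with a pooled SD of 0.08. It was the second strongest shared Sult peak. Peaks at 9420 bp past the Sult4a1 TSS, in an intron, and 7333 bp upstream, in an intron of a neighbouring transcript, were in the Bcl6LKO list alone, with levels of -0.22 and -0.28, and of 0.23 and 0.36. The Bcl6LKO input log2 values there were 2.43 and 2.46, close to the 95th percentile of 2.49.

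The third strongest shared Sult peak lay 4626 bp upstream of Sult5a1, with levels of -0.67 and 0.33 in WT and -0.31 and 0.45 in Bcl6LKO, which overlapped. The strongest Sult peak of the Bcl6LKO list alone, chr10:33723987-33724191, was 58026 bp from the Sult3a2 TSS in an endogenous retrovirus repeat. Its levels were 1.64 and 1.82, and it ranked 872 of 12495. The strongest of the WT list alone was also nearest to Sult3a2, 35026 bp upstream, with levels of -0.49 and -0.75.

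Sult1a1, which sulfates phenols, had 3 WT peaks and no Bcl6LKO peak by nearest TSS, while 1 Bcl6LKO peak inside the gene was nearest to another TSS. In WT replicates 1 and 2 their levels were -2.57 and -0.92 at 7206 bp past the TSS, -0.63 and -2.35 at 2263 bp upstream, and -0.88 and -0.48 at 4915 bp upstream. The replicates differed widely at the first and second of these. Estimated tags in WT replicate 2 were 7.35, 2.72 and 9.97.

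Glutathione transferase genes held the strongest shared peaks of the 3 families, at Gstt2 and Gsta4. As a family they were not stronger in WT. The median level of all WT peaks was -0.71 for Gst, -0.67 for Ugt and -0.69 for Sult, against -0.68 for the whole list. In Bcl6LKO the medians were -0.03, -0.78 and -0.71, against -0.20. The Gstt2 peak, upstream of a theta class enzyme, ranked 5 of 20040 WT peaks and 9 of 12495 Bcl6LKO peaks. Its levels were 3.52 and 4.09 in WT and 3.78 and 3.85 in Bcl6LKO. The difference of 0.01 was smaller than the pooled SD of 0.29.

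The second strongest was the promoter of Gsta4, which conjugates aldehydes from lipid peroxidation, at chr9:78191887-78192097. Its levels were 2.75 and 3.19 in WT and 3.16 and 3.27 in Bcl6LKO, and the libraries overlapped. The promoter of Gstz1, an enzyme of tyrosine breakdown, had levels of 1.61 and 1.71 in WT and 1.33 and 1.49 in Bcl6LKO at chr12:87147461-87147671. Its Bcl6LKO libraries were both lower, with a difference of -0.25 and a pooled SD of 0.09.

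**Figure D2:**
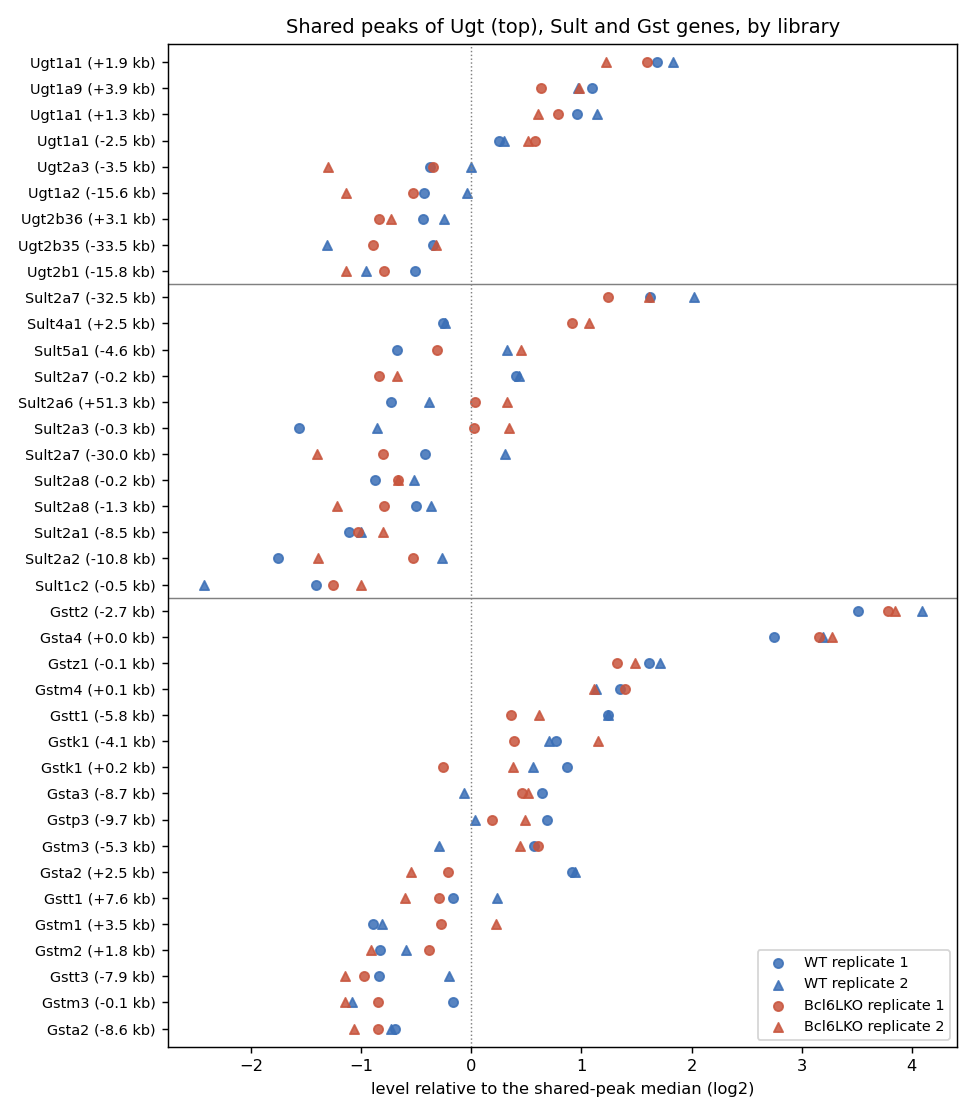
Levels of the 38 shared peaks in the 4 ChIP libraries, as log2 tags after subtraction of each library's own shared-peak median (horizontal axis), with the distance of the WT peak from the TSS in parentheses; blue is WT, red is Bcl6LKO, circles are replicate 1 and triangles replicate 2. Gstt2 and Gsta4 lie above all other peaks, and Sult4a1, Sult2a3 and Sult2a7 (180 bp upstream) have the genotypes apart.

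Alpha class Gsta2 had the shared peak furthest down in Bcl6LKO over the 3 families. This intron 1 peak at chr9:78344577-78344787 had levels of 0.91 and 0.94 in WT and -0.21 and -0.55 in Bcl6LKO, a difference of -1.31 with a pooled SD of 0.17. It lies in a SINE repeat, and the WT input log2 value there was 1.83. A second shared Gsta2 peak, 8637 bp upstream, had levels of -0.69 and -0.73 in WT and -0.85 and -1.07 in Bcl6LKO. A WT peak 7734 bp upstream had levels of -1.28 and -1.43, and a Bcl6LKO peak 1738 bp upstream had levels of -1.52 and -0.88. Neither of the latter was shared. The strongest Gst peak of the WT list alone, 13400 bp upstream of Gsta1, had levels of 0.01 and 0.01.

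Mu class Gstm1 had the only shared Gst peak with both Bcl6LKO libraries above both WT libraries. At 3497 bp past the TSS, in intron 7, the levels were -0.90 and -0.81 in WT and -0.27 and 0.22 in Bcl6LKO, a difference of 0.83 with a pooled SD of 0.25. Its promoter peaks were not shared between the lists. A WT peak 23 bp upstream of the TSS had levels of -1.26 and -0.41, and a Bcl6LKO peak 910 bp upstream had levels of -0.48 and 0.20. A Bcl6LKO peak 7707 bp upstream had levels of -0.95 and -0.23. The peak 910 bp upstream was the strongest Gst peak of the Bcl6LKO list alone, with an input log2 value of 2.44. It is shown because, beside the Sult2a2 window above, it is the only peak of the 3 families with an IR1 of at most 1 mismatch (chr3:108018781-108018985, mm10, plus strand, IR1 in capitals).
Gstm1: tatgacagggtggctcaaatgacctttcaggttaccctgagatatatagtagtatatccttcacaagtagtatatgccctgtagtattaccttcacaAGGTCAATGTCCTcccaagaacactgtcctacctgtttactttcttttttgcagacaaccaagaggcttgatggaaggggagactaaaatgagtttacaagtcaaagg
The site lies 1 bp from the peak centre.

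Kappa class Gstk1, an enzyme of mitochondria and peroxisomes, had shared peaks on both sides of its TSS. The one 4103 bp upstream overlapped between genotypes, with levels of 0.77 and 0.71 in WT and 0.39 and 1.15 in Bcl6LKO. The one in intron 1, 228 bp past the TSS, was lower in both Bcl6LKO libraries, with levels of 0.87 and 0.56 in WT and -0.26 and 0.38 in Bcl6LKO. A WT peak 6483 bp past the TSS had levels of -1.92 and -2.08.

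Pi class Gstp3 had the most peaks of any member gene in the WT list, 5, and had 1 in the Bcl6LKO list. Its shared peak, 9741 bp upstream, had levels of 0.69 and 0.03 in WT and 0.19 and 0.49 in Bcl6LKO, and the genotypes overlapped. The other 4 were in the WT list alone. Their levels were -1.23 and -1.43 at 2858 bp past the TSS, -1.52 and -2.44 at 993 bp upstream, -1.13 and -1.20 at 7158 bp upstream, and -0.29 and -0.36 at 11067 bp upstream. All 4 were under the shared-peak median in both libraries. Estimated tags in WT replicate 2 were 5.16, 2.56, 6.06 and 10.8, in the same order.

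Over the 38 shared peaks, both Bcl6LKO libraries lay below both WT libraries at 15 (39.5%) and above them at 6 (15.8%), and the genotypes overlapped at 17. Among all 9918 shared peaks the shares were 25.2% below and 29.8% above. Without WT replicate 2, the shallow library, 20 were below and 12 above, where all shared peaks had 35.3% and 41.1%. Without WT replicate 1, 19 were below and 10 above, where all shared peaks had 38.6% and 42%. Leaving out either Bcl6LKO library gave 17 to 20 below and 9 to 11 above, and the share over all shared peaks was not computed there. Among the 34 shared peaks left without those of high input 12 were below and 5 above, where all shared peaks had 24.8% and 30.0%. The median difference between Bcl6LKO and WT was -0.13, with quartiles of -0.47 and 0.22, against a median of 0.03 over all shared peaks. The SD of the library medians was 0.29, so the median of -0.13 was within this spread. The median level of the 38 peaks was -0.11 in WT and 0.02 in Bcl6LKO, which goes the other way. By family, 4 of 9 Ugt peaks were below and 1 above, 4 of 12 Sult peaks were below and 4 above, and 7 of 17 Gst peaks were below and 1 above.

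The family medians of the difference were -0.35 for Ugt, 0.09 for Sult and -0.02 for Gst. The SD of the library medians was 0.17, 0.19 and 0.26, so the medians of Sult and Gst were within this spread. The Ugt median came within it, at -0.16, without Bcl6LKO replicate 2. The Gst median was -0.21 without WT replicate 2. The Sult median changed sign, to -0.20, without WT replicate 1 and, to -0.24, without centring, where all shared peaks had a median of -0.30. The Sult peaks ranged from -1.18 to 1.39, the Gst peaks from -1.31 to 0.83 and the Ugt peaks from -0.63 to 0.27.

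**Figure D3:**
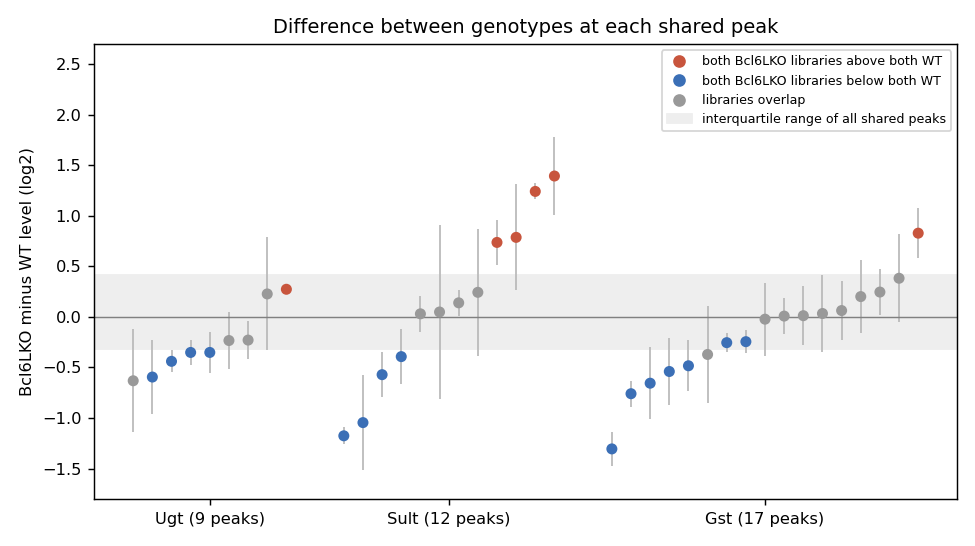
Difference in level between Bcl6LKO and WT (log2, vertical axis) at each shared peak, ordered within each family; bars are the pooled SD of 2 libraries a genotype and the grey band is the interquartile range of all shared peaks. The Sult peaks spread on both sides of 0, while 7 of 9 Ugt peaks lie below it. Of all 9918 shared peaks 4757 lie below 0. The 9 Ugt peaks include 5 from the single Ugt1a locus, and 4 of the 9 have both Bcl6LKO libraries below both WT libraries.

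Promoter peaks were counted by the annotation of the peak centre. They made up 12 of 72 WT peaks (16.7%, 9.80 to 26.9) and 9 of 54 Bcl6LKO peaks (16.7%, 9.02 to 28.7), against 11.4% and 11.3% of all peaks. In WT the promoters were those of Gsta4, Gstz1, Gstm1, Gstm3, Gstm7 and Gstp3, of Sult1c2, Sult2a3, Sult2a5, Sult2a7 and Sult2a8, and of Ugt2b34. Of 11 Ugt peaks in Bcl6LKO 0 were promoter peaks, which allows a share of up to 27.3%. However, 2 of the 11 (18.2%, 5.14 to 47.7) lay within 1 kb of a TSS, against 16.6% of all Bcl6LKO peaks. They were annotated to exon 1, 140 bp past the TSS of Ugt2b1 and 203 bp past that of Ugt1a5. Peaks centred in an annotated repeat made up 22 of 72 WT peaks (30.6%, 21.1 to 42.0) and 16 of 54 Bcl6LKO peaks (29.6%, 19.1 to 42.8), against 17.3% and 14.9% of all peaks. The Sult peaks of the Bcl6LKO list had the most, 10 of 22.

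**Figure D4:**
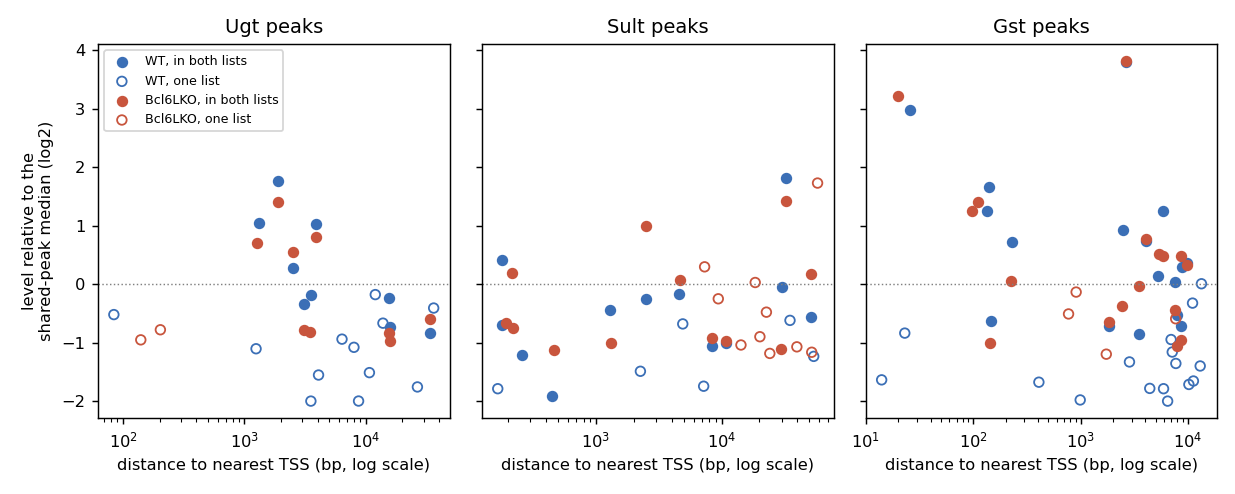
Mean level of each peak over its 2 ChIP libraries (log2 relative to the shared-peak median) against its distance from the nearest TSS in bp on a log scale, by family; filled points are shared and open points are in 1 list. Gst peaks all lie within 13400 bp of a TSS, while Sult peaks reach 58026 bp.

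Motifs were searched on both strands within 100 bp of the peak centre. The IR1, with up to 2 mismatches, was found in 4 of 72 WT peaks (5.56%, 2.18 to 13.4) and 8 of 54 Bcl6LKO peaks (14.8%, 7.70 to 26.6), against 11.8% and 16.2% of all peaks. It was in 0 of 21 WT Ugt peaks, which allows a share of up to 14.3%. The WT peaks with an IR1 were at Gstt1, Gstt2 (5939 bp past the TSS), Gstm3 and Sult2a6. The Bcl6LKO matches at Gstt1, Gstm3 and Sult2a6 are the same genomic sites. Those at Sult2a5, Sult2a2 and Sult2a1 lie in the related L1VL2 repeats shown above, and the others were at Sult3a2 and Gstm1. The matches are therefore not all separate observations, and the intervals may be too narrow. In windows 2000 bp away from all WT peaks the share was 0.893%, and 1.14% of all RefSeq promoters of 300 bp hold an IR1.

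The IR0, searched for after the values were seen, was found in 7 WT peaks (9.72%, 4.79 to 18.7) and 6 Bcl6LKO peaks (11.1%, 5.19 to 22.2), against 3.32% and 3.53% of all peaks. In windows 2000 bp away from all WT peaks it was in 0.758%, and 1.04% of all RefSeq promoters hold it. The WT matches at Sult2a5, Sult2a2 and Sult2a1 have the same sequence, read on either strand, and these genes are neighbours in a cluster. Matches at Ugt1a9, Ugt1a1, Sult2a2 and Sult2a1 are the same genomic sites in both lists, so the lists are not separate observations. The intervals count copied sites as separate peaks and may be too narrow. An IR0 of at most 1 mismatch was found at Ugt1a9, at Ugt1a1 (2488 bp upstream) and, in Bcl6LKO, in exon 1 of Ugt2b1. These were 2 of 72 WT peaks (2.78%) and 3 of 54 Bcl6LKO peaks (5.56%), against 0.509% and 0.64% of all peaks. The sites are given because the 3 Ugt genes hold all the IR0 matches at this limit among the members.
Ugt1a9, chr1:88074652-88074663: aggtcatgatct
Ugt1a1, chr1:88209453-88209464: gggtcatgacct
Ugt2b1, chr5:86926341-86926352: acgtcatgacct
The first lies 7 bp and the second 12 bp from the centre of the WT peak. An exact half-site was in 26 of 72 WT peaks (36.1%) and 26 of 54 Bcl6LKO peaks (48.1%), against 40.3% and 41.3% of all peaks. An IR0 with exact half-sites would contain them, so these counts are not separate. The DR1, the direct repeat of the half-site with a 1-base spacer, was in 12 WT and 11 Bcl6LKO peaks (16.7% and 20.4%), against 12.8% and 11.9% of all peaks.

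**Figure D5:**
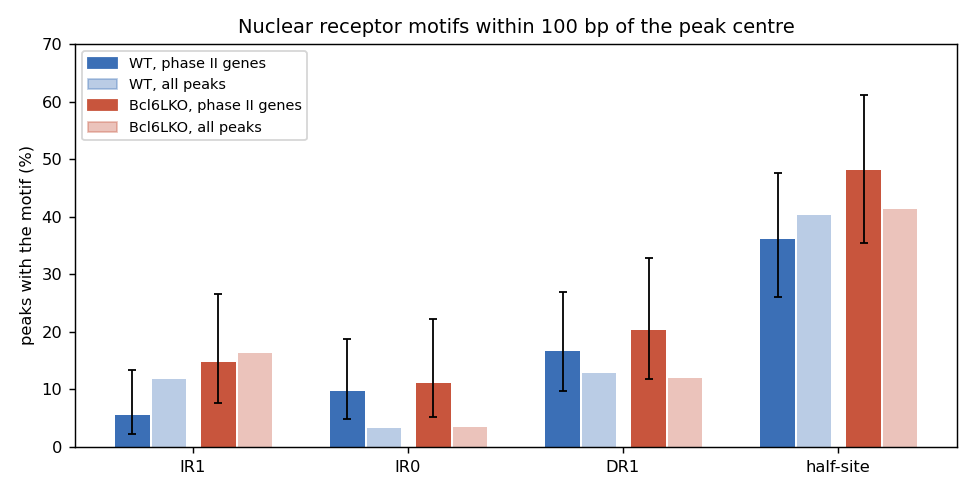
Share of peaks (%, vertical axis) with an IR1, IR0, DR1 or exact half-site within 100 bp of the centre, for the phase II genes (full colour, with 95% Wilson intervals) and all peaks (pale) of the WT (blue) and Bcl6LKO (red) lists. The IR0 share of the phase II genes, 9.72% and 11.1%, is above the pale bars. The IR1 share, 5.56% and 14.8%, is below them, but its intervals hold the shares of all peaks.

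Other genes of phase II metabolism were counted for context. Of 13 genes that supply cofactors, such as Papss2 for active sulfate and Gclm for glutathione, 11 had a WT peak and 10 a Bcl6LKO peak, where 34.5% and 26.3% of all protein-coding genes did. They held 41 WT and 23 Bcl6LKO peaks, of which 20 were shared, against 49.5% and 79.4% of all peaks. Papss2, which makes the sulfate donor of the Sult enzymes, had 11 WT and 9 Bcl6LKO peaks, 8 of them shared. Ugdh, which makes the sugar donor of the Ugt enzymes, had 0 in both lists. Of 21 other conjugation and partner genes 18 had a WT peak and 15 a Bcl6LKO peak, with 56 and 28 peaks and 25 shared.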

How the data were processed

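FXR ChIP-seq was performed on livers of 2 genotypes, with 2 ChIP libraries and 1 input each. According to the study's methods and the submitters' processing notes, the authors aligned single-end reads uniquely to mm10 with Bowtie 1.2 and used HOMER 4.10 to call peaks on pooled replicates against input, keep those passing DESeq2 at an adjusted p of 0.05 and a log2 fold of 1, and annotate the nearest TSS. The deposited library columns hold regularized log2 tag values scaled to library totals within each table, although the headers call them raw counts. The deposited peak score is a signal of pooled ChIP tags per 10000000 tags. The columns of the authors' own comparison of ChIP with input (fold change, p-value and adjusted p-value) were not used.

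Peaks were 211 bp (WT) and 205 bp (Bcl6LKO) wide. Lists were joined by an overlap of 1 bp, levels were centred on the shared-peak median of each library, and tags were estimated from the log2 values and the library totals. All peaks fitted within the chromosomes of GRCm38, from which sequences were read and which is the same assembly as mm10. Motifs and promoters (RefSeq, GRCm38.p6) were scanned with up to 2 mismatches. Overlap, motif and interval code was tested on simulated data. Python 3.11.15, numpy 2.4.6, pandas 2.3.3 and biopython 1.88 were used. Alternatives covered peak strength, input, overlap, motif limits, centring and leaving out each library.

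The members and lists were chosen with earlier results of these data known. Named peaks were the 3 strongest shared ones of each family, the strongest of each list alone, those furthest up and down without overlap between genotypes, and all peaks of genes with 3 or more in a list. The Sult2a promoter pair, the L1VL2 windows and the IR0 sites were added after their values were seen. The sequence of the strongest Gst peak is not reported here.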

Additional observations from a re-analysis of the deposited data

How the results depend on the processing

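Of 66 alternative values, 45 stayed within the limits set for a stable value and 21 moved. The Sult median, which was within its spread, changed sign under 3 of them, as given below. Keeping peaks at or above the median strength of their list left 35 WT and 24 Bcl6LKO peaks and raised the shared share to 80.0% and 83.3%. An IR1 limit of 1 mismatch lowered its share to 0% of WT peaks, which allows up to 4.17%, and 3.70% of Bcl6LKO peaks, against 2.46% and 3.55% of all peaks. Centring on the median of all peaks of a list, which moved the median of all shared peaks to -0.45, gave median differences of -0.60 over the phase II peaks, -0.83 for Ugt, -0.38 for Sult and -0.50 for Gst. It gave 26 peaks below and 3 above, where all shared peaks had 58.3% and 9.43%. Without centring, where the median of all shared peaks was -0.30, the values were -0.45, -0.68, -0.24 and -0.35, and 19 peaks were below and 4 above, where all shared peaks had 37.3% and 12.9%.

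Leaving out each library in turn gave median differences of -0.21 to -0.15 over the phase II peaks, -0.42 to -0.16 for Ugt, -0.20 to 0.25 for Sult and -0.21 to -0.06 for Gst. The counts ran from 17 to 20 below and from 9 to 12 above. A single library overlaps less often by construction. Over all shared peaks, leaving out a WT library gave 35.3% to 38.6% below and 41.1% to 42% above. That share was not computed without a Bcl6LKO library. The Sult median was -0.20 without WT replicate 1, and the Ugt median was -0.16 without Bcl6LKO replicate 2; the cause was not tested. The counts of peaks below and above were varied after the data were seen. No paired analysis was possible because the labels tie no WT replicate to a Bcl6LKO one except by number, and no value here comes from a test. WT replicate 2, with 2883717 tags, limits the weak WT peaks.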
